A study of Homo sapiens with 47 samples.

Results

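The count table held 1006 microRNA (miRNA) entries. Described here are 10 of the entries that come from 1 stretch of an intron of CLCN5 on the X chromosome. These 10 members are hsa-miR-188-5p, hsa-miR-362-5p, hsa-miR-362-3p, hsa-miR-500a-5p, hsa-miR-500a-3p, hsa-miR-502-5p, hsa-miR-502-3p, hsa-miR-532-5p, hsa-miR-532-3p and hsa-miR-660-5p and are defined by their names and place in the genome. They were singled out with earlier results of these data known. The species prefix is left out hereafter. The question was whether miRNAs of 1 cluster change together in hypoxia. Small RNA was sequenced from PC-3, a prostate cancer line from a bone metastasis that lacks the androgen receptor, and from 22Rv1, a prostate cancer line from the xenograft subline CWR22R that expresses that receptor. In each line, hypoxia groups spent 24 h at 1 of 6 O2 levels (0, 0.2, 0.5, 1 and 2%, with 5% as the highest), and each level had its own normoxia group in 95% air. Both conditions shared the same medium with serum. The 24 groups comprised 2 libraries each, apart from 22Rv1 normoxia at the 0.2% level with a single library, so PC-3 had 24 libraries and 22Rv1 had 23. The labels do not say that the libraries of a group came from separate cultures, so the p-values measure the spread between these libraries, which may be technical.

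A miRNA is cut from a hairpin in a longer transcript, first by Drosha in the nucleus and then by Dicer in the cytoplasm, and either arm (5p or 3p) can be loaded into Argonaute. Bases 2 to 8 of the loaded arm, the seed, pair with target messenger RNAs, which are then repressed. Hairpins that lie close together on 1 strand are often cut from 1 primary transcript, after which each arm is processed and degraded at its own rate. CLCN5 encodes the chloride and proton exchanger ClC-5, whose loss causes Dent disease of the kidney. Hypoxia is common in prostate tumours, and hypoxia-inducible factor (HIF) is the main transcription factor of the response.

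The hairpins of the cluster lie on the plus strand of the X chromosome, and the 7 placed here from RefSeq (GRCh38.p14) span 11536 bases, chrX:50003148-50014683. Their order is miR-532, miR-188, miR-500a, miR-362, miR-500b, miR-660 and miR-502. The arms of miR-501 lie between miR-362 and miR-500b, at chrX:50009735-50009793. miR-532 and miR-188 lie 264 bases apart, and 4842 bases separate miR-188 from miR-500a. In GENCODE 29, CLCN5 (chrX:49922615-50099235, plus strand) has 9 transcripts, of which 3 span the hairpins. In those 3 the hairpins lie in an intron of 117001 bases, between exons that end at 49925314 and start at 50042316. The other 6 transcripts start after the last hairpin.

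The mature sequences, with the seed in capitals, show which members could share targets and which could share reads. RefSeq gave a sequence for 9 of the 10 members, in genomic order here, and miR-660-5p is given by name only.
miR-532-5p: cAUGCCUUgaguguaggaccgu
miR-532-3p: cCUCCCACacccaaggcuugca
miR-188-5p: cAUCCCUUgcaugguggaggg
miR-500a-5p: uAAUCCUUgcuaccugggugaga
miR-500a-3p: aUGCACCUgggcaaggauucug
miR-362-5p: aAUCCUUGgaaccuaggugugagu
miR-362-3p: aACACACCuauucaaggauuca
miR-502-5p: aUCCUUGCuaucugggugcua
miR-502-3p: aAUGCACCugggcaaggauuca
The same locus also yields other mature miRNAs that are no members, called companions here. The 3 shown are close copies of members.
miR-501-5p: aAUCCUUUgucccugggugaga
miR-501-3p: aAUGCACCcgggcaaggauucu
miR-500b-5p: aAUCCUUGcuaccugggu

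No 2 of these 9 members share a seed. The 5p arms of miR-362, miR-500a and miR-502 hold the run UCCUU at seed positions shifted against each other, and miR-362-5p has the same seed as miR-500b-5p. miR-502-3p has the seed of miR-501-3p. miR-500a-3p and miR-502-3p share a run of 20 of their 22 bases and differ mainly by an offset of 1 base at the start, so that their seeds differ. All 18 bases of miR-500b-5p lie within miR-500a-5p. Reads that are shortened at an end could be credited to either of such a pair, so the values of miR-500a-3p, miR-502-3p and miR-500a-5p are uncertain to that extent. No member had the same counts as another entry in every library.

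Of the 3 CLCN5 promoters that RefSeq lists, 1 lies before the hairpins, chrX:49922346-49922645, ending 80503 bases before the first of them. It is shown because a shared primary transcript could start there; capitals mark matches to the HIF core motif spelled GCGTG, on either strand.
CLCN5 promoter: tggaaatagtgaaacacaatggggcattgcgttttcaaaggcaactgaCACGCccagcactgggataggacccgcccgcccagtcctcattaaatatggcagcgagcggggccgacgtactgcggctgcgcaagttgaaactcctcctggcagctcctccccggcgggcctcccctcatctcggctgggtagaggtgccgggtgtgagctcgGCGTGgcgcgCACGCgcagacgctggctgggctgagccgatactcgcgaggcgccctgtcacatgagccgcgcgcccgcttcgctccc
The window held GCGTG once on the plus strand and 2 times on the minus strand, and the other core form, ACGTG, on neither strand. GCGTG occurred in 36.5% of 35116 promoter windows of the same length, ACGTG in 21.4%, and at least 1 of the 2 in 48.4%. A match is a description of letters only, and where the cluster's primary transcript starts was not measured.

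Library totals ran from 1742290 to 4327382 counts in PC-3 and from 960421 to 3181344 in 22Rv1. miR-210-3p, the HIF target used as a check of the labels, was at 1075 ± 110 CPM (the count table scaled to library size with TMM, the trimmed mean of M values) in hypoxic and 667 ± 88.4 CPM in normoxic PC-3 (SD, n = 12 each). In 22Rv1 it was at 2376 ± 429 CPM in hypoxia (SD, n = 12) and 1153 ± 164 CPM in normoxia (SD, n = 11). It was higher in hypoxia in 12 of 12 same-numbered pairs of PC-3 and 11 of 11 of 22Rv1. The line markers miR-221-3p and miR-222-3p together had medians of 43767 CPM in hypoxia and 45498 CPM in normoxia in PC-3, and of 61.8 CPM in hypoxia and 68.7 CPM in normoxia in 22Rv1. All 6 epithelial markers were present in both lines, but at different levels. miR-200c-3p had a median of 23.8 CPM in PC-3 and 21155 CPM in 22Rv1, and miR-200b-3p had 6345 CPM in PC-3 and 54.0 CPM in 22Rv1. In PC-3 the number 1 libraries at 5% O2 held 1392 CPM (hypoxia) and 1469 CPM (normoxia) of 6 smooth muscle or stromal markers, almost all miR-143-3p, against medians of 36.0 CPM (hypoxia) and 25.9 CPM (normoxia). In 22Rv1, 3 libraries stood apart on the first principal component: hypoxia number 1 at 5% O2, its normoxia partner, and hypoxia number 1 at 0.5% O2. The 2 at 5% O2 were also the smallest, with 1035470 and 960421 counts.

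The 10 members spanned more than 2 orders of magnitude. In normoxia, miR-500a-3p was the most abundant in both lines, at 287 ± 16.2 CPM in PC-3 (SD, n = 12) and 405 ± 31.1 CPM in 22Rv1 (SD, n = 11). It made up 41.0% of the members' summed CPM in PC-3 and 36.6% in 22Rv1. miR-532-5p followed with 20.5% in PC-3 and 26.2% in 22Rv1, and miR-660-5p with 17.0% in PC-3 and 16.5% in 22Rv1. Next came miR-188-5p and then miR-362-5p in PC-3, while in 22Rv1 miR-362-5p was ahead of miR-188-5p. These 2 neighbours in 22Rv1 did not differ beyond their spread, at 91.6 ± 19.6 CPM for miR-362-5p and 82.7 ± 26.3 CPM for miR-188-5p (SD, n = 11). Mature miRNAs are of nearly equal length and are counted as whole molecules, but adapter ligation favours some sequences, which limits comparisons between miRNAs.

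**Figure D1:**
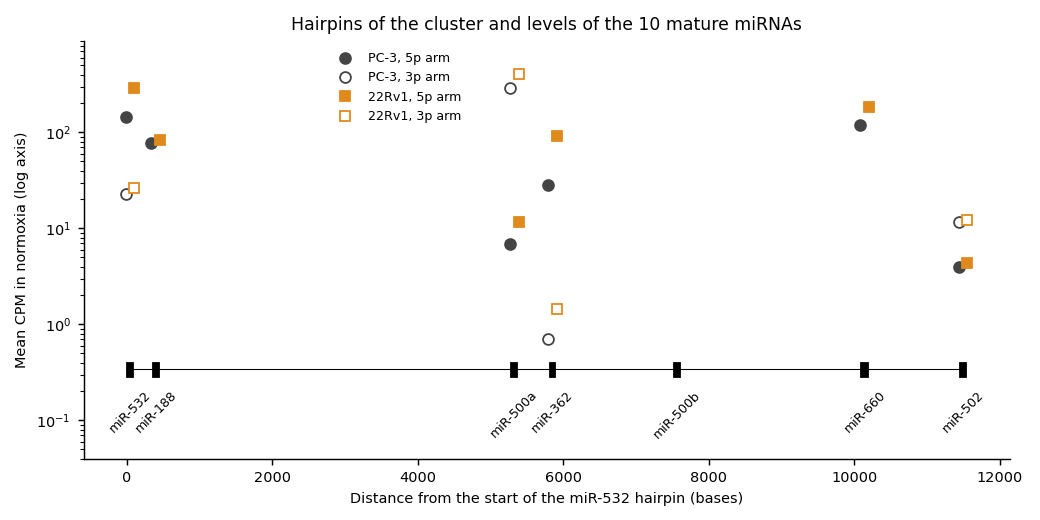
Mean level in normoxia (y, CPM on a log axis) of each member above its hairpin (7 black boxes; x, bases from the start of the miR-532 hairpin), for PC-3 (grey circles) and 22Rv1 (orange squares), with 5p arms filled and 3p arms open. miR-500a-3p (287 CPM in PC-3, 405 CPM in 22Rv1) lies far above its other arm, and miR-362-3p lies near 1 CPM.

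Which arm prevailed differed between neighbouring hairpins. The 3p arm prevailed for miR-500a: miR-500a-5p had 6.85 ± 1.88 CPM in PC-3 (SD, n = 12) and 11.5 ± 3.12 CPM in 22Rv1 (SD, n = 11). It also prevailed for miR-502, at 11.7 ± 2.48 CPM against 3.97 ± 1.51 CPM for the 5p arm in PC-3 (SD, n = 12). The 5p arm prevailed for miR-532, where miR-532-3p had 22.6 ± 2.18 CPM in PC-3 (SD, n = 12) and 26.0 ± 6.87 CPM in 22Rv1 (SD, n = 11). It also prevailed for miR-362, whose 3p arm had 0 to 6 counts per library in PC-3 and 1 to 9 in 22Rv1. miR-362-3p was therefore the 1 member that failed the filter of at least 5 CPM in at least 2 libraries, and 9 of the 10 members were tested in each line. In the 4 PC-3 libraries in which it had 0 counts, a count of 0 allows up to 0.988 to 1.99 CPM (3 counts), a limit for counting error only.

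In PC-3, 2 members fell in hypoxia: miR-188-5p, reported to repress the lysosomal protein gene LAPTM4B in prostate cancer, and miR-500a-3p, the most abundant member. No member rose. The mean hypoxia effect is the average over the 6 O2 levels of log2 hypoxia minus its own normoxia. It was tested with edgeR's quasi-likelihood test, and p-values were adjusted by Benjamini-Hochberg over all miRNAs of the fit. Of the 463 miRNAs tested in PC-3, 5.18% were called lower, 5.83% higher and 11.0% in either direction. In bulk RNA, a lower level in every cell and a loss from some cells cannot be told apart.

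miR-188-5p had 36.9 (lowest), 55.8 (median) and 72.3 (highest) CPM in the 12 hypoxic PC-3 libraries, against 62.8, 77.4 and 91.2 CPM in the 12 normoxic ones. Of the hypoxic libraries 9 lay below the lowest normoxic one, and each of the 12 lay below the normoxic library of its own number and level. The mean effect was -0.46 log2 (SE 0.089, adjusted p = 8.9e-04). Its differences at the 6 levels, in order of increasing O2, were -0.59, -0.48, -0.52, -0.52, -0.45 and -0.17 log2. These rest on 84 to 277 counts per library.

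miR-500a-3p had 204, 248 and 279 CPM (lowest, median, highest) in hypoxic PC-3, against 259, 286 and 309.6 CPM in normoxic PC-3. It was lower in 10 of 12 pairs and at 5 of 6 levels, and 8 of 12 hypoxic libraries lay below the lowest normoxic one. The mean effect was -0.21 log2 (SE 0.054, adjusted p = 0.012), on 385 to 1109 counts per library. Without the PC-3 number 1 libraries at 5% O2, in which miR-143-3p was high, the mean effect of miR-188-5p was -0.47 log2 (adjusted p = 0.0026) and that of miR-500a-3p -0.20 log2 (adjusted p = 0.047).

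**Figure D2:**
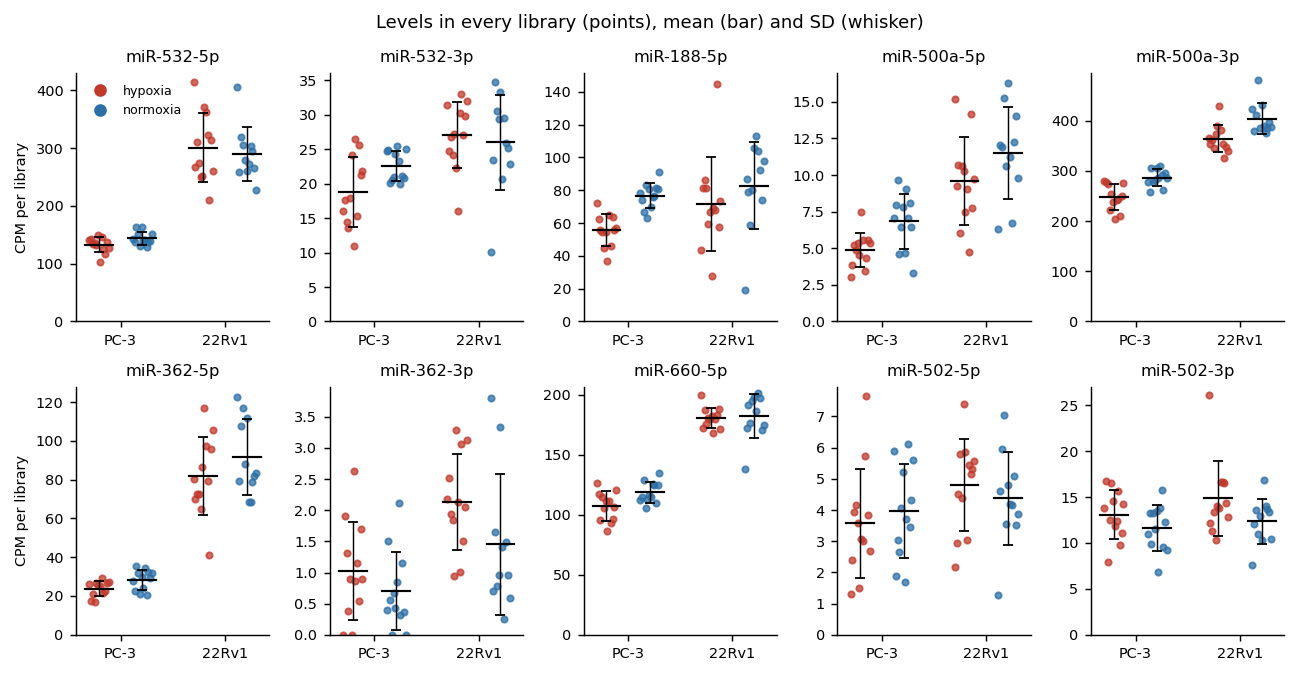
CPM of each member in every library (points), with the mean (bar) and SD (whisker), for hypoxia (red) left of normoxia (blue) in PC-3 and in 22Rv1; each axis starts at 0. In PC-3 the 12 hypoxic libraries of miR-188-5p reach at most 72.3 CPM, and 9 of them lie below the lowest normoxic library at 62.8 CPM.

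The other 7 tested members did not pass the test in PC-3. Of all 9, 8 had a mean effect below 0, as did 51.0% of all miRNAs tested, and the median was -0.22 log2 against -0.0044 log2 over all. An unadjusted p below 0.05 was reached by 6 of 9 members and by 24.6% of all. miR-500a-5p, the minor arm of its hairpin and reported to act on oxidative stress genes in breast cancer, had the lowest value, -0.51 log2 (SE 0.17, adjusted p = 0.058), on 7 to 35 counts per library. It had 3.03, 5.08 and 7.47 CPM in hypoxia (lowest, median, highest), against 3.29, 7.07 and 9.66 CPM in normoxia. Its groups overlapped over most of their range.

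miR-660-5p, reported to repress MDM2 in lung cancer, had 86.5, 109 and 126 CPM in hypoxic PC-3 (lowest, median, highest), against 105, 116 and 135 CPM in normoxic PC-3 (-0.14 log2, SE 0.063, adjusted p = 0.16). miR-362-5p, reported to repress CYLD in liver cancer, had 17.0, 25.3 and 29.1 CPM in hypoxia, against 20.3, 29.5 and 35.3 CPM in normoxia (-0.25 log2, SE 0.10, adjusted p = 0.12). Both were lower in 9 of 12 pairs, with overlapping groups.

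miR-532-5p, reported to repress RUNX3 in gastric cancer, had -0.11 log2 (SE 0.064, adjusted p = 0.31) and its 3p arm -0.28 log2 (SE 0.12, adjusted p = 0.15). In 7 of 12 hypoxic libraries miR-532-3p lay below the lowest normoxic one, while its highest hypoxic library, at 26.5 CPM, lay above all normoxic ones. miR-502-5p had -0.22 log2 (SE 0.23, adjusted p = 0.63). miR-502-3p was the 1 member above 0, at 0.19 log2 (SE 0.14, adjusted p = 0.41), and was lower in 5 of 12 pairs. This is the arm that shares 20 bases with miR-500a-3p, which fell.

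With the same-numbered hypoxia and normoxia libraries of a level kept as a block, 4 members fell in PC-3 in edgeR's quasi-likelihood test, beside 12.5% lower calls over all miRNAs. The 2 added were miR-500a-5p (-0.48 log2, SE 0.16, adjusted p = 0.038) and miR-660-5p (-0.15 log2, SE 0.053, adjusted p = 0.048). miR-188-5p had -0.46 log2 (adjusted p = 8.9e-06) and miR-500a-3p -0.21 log2 (adjusted p = 4.2e-04) in that fit. Over all 463 miRNAs the block gave 109 calls, against 51 without it.

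**Figure D3:**
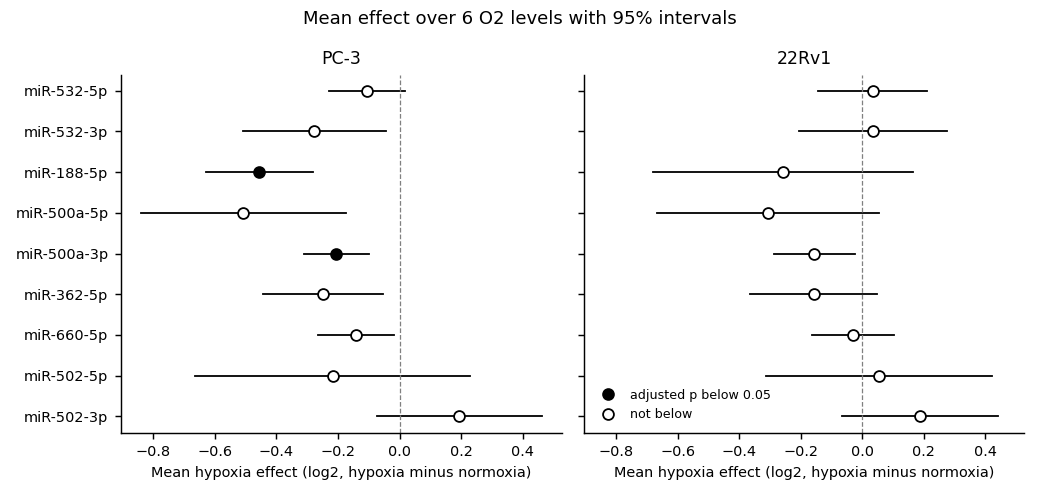
Mean hypoxia effect of the 9 tested members in PC-3 and 22Rv1 (x, log2 of hypoxia minus normoxia over 6 O2 levels), with 95% intervals from the fit without the block; filled points passed the adjusted threshold. In PC-3, 8 of 9 points lie below 0 and 2 are filled, miR-188-5p (-0.46) and miR-500a-3p (-0.21); in 22Rv1, 5 of 9 lie below 0 and none is filled.

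In 22Rv1 no member passed the test for the mean effect, where edgeR called 13.6% of the 552 miRNAs tested, 5.98% lower and 7.61% higher. Of the 9, 5 were below 0, beside 48.6% of all miRNAs, and the median was -0.03 log2 against 0.01 log2 over all. An unadjusted p below 0.05 was reached by 1 member and by 27.5% of all. DESeq2's Wald test also called 0 members, beside 14.3% of all miRNAs. The 1 member with an unadjusted p below 0.05 in edgeR's test was miR-500a-3p. It had 326, 358 and 430.2 CPM in hypoxic 22Rv1 (lowest, median, highest), against 376, 389 and 481 CPM in normoxic 22Rv1. It was lower in 9 of 11 pairs (-0.16 log2, SE 0.067, adjusted p = 0.14), and 9 of 12 hypoxic libraries lay below the lowest normoxic one.

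miR-188-5p varied more in 22Rv1 than in PC-3. It had 27.7, 68.4 and 145 CPM in hypoxia (lowest, median, highest), against 19.0, 86.7 and 113 CPM in normoxia, and was lower in 8 of 11 pairs (-0.26 log2, SE 0.22, adjusted p = 0.50). Leaving out 1 library moved this value between -0.38 log2 (without hypoxia number 2 at 5% O2, adjusted p = 0.28) and 0.02 log2 (without normoxia number 2 at 5% O2, adjusted p = 0.98) in edgeR's test, so its direction was not stable. The lowest normoxic value came from the library with 960421 counts, where it rests on 15 counts, and the highest hypoxic value from library number 2 at 0.2% O2, which had no normoxia partner. Without the 3 libraries that stood apart, its mean effect was -0.22 log2 (SE 0.13, adjusted p = 0.28), and 0 members were called.

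With the block, 2 members fell in 22Rv1: miR-188-5p (-0.36 log2, SE 0.10, adjusted p = 0.0095) and miR-500a-5p (-0.48 log2, SE 0.17, adjusted p = 0.032), beside 13.8% lower calls over all miRNAs. The hypoxic library with 145 CPM of miR-188-5p has no partner at its level and so does not enter a blocked difference. Its part in the blocked call of miR-188-5p was not tested. Without the block, omissions of 1 library left miR-188-5p between -0.38 and 0.02 log2. Leaving out the library with 145 CPM in the fit without the block moved miR-500a-5p to -0.49 log2.

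The remaining members of 22Rv1 lay on both sides of 0. Of the 11 pairs, miR-500a-5p and miR-660-5p were each lower in 9, and miR-362-5p in 6. The pairs with a lower value numbered 4 for miR-532-5p, 5 for miR-532-3p, 4 for miR-502-5p and 3 for miR-502-3p. miR-362-5p had -0.16 log2 (SE 0.11, adjusted p = 0.37) and miR-500a-5p -0.31 log2 (SE 0.18, adjusted p = 0.30). miR-660-5p was nearly level, with 168, 180 and 199.9 CPM in hypoxia (lowest, median, highest), against 138, 186 and 201 CPM in normoxia (-0.03 log2, SE 0.069, adjusted p = 0.86). miR-532-5p (0.03 log2), miR-532-3p (0.03 log2), miR-502-5p (0.06 log2) and miR-502-3p (0.19 log2, SE 0.13, adjusted p = 0.39) had positive values.

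At single O2 levels no member passed edgeR's test in either line, and DESeq2's Wald test called none. In order of increasing O2, the share called over all miRNAs in PC-3 was 2.81, 1.51, 0.864, 0.648, 0.648 and 0%. In 22Rv1 it was 4.71, 0.906, 3.08, 0.725, 0.362 and 0%. Members with an unadjusted p below 0.05 numbered 1 or 2 at each level in PC-3, and 2 at 0.5%, 2 at 2% and 0 at the other levels in 22Rv1. Over all miRNAs the share below that p was 3.24 to 14.5% at the levels of PC-3, and 19.4% at 0.5% and 6.88% at 2% O2 in 22Rv1. At 2% O2, picked after seeing the values as the most uniform level, 8 of 9 members were below 0 in both lines. Over all miRNAs 52.1% were below 0 there in PC-3 and 49.6% in 22Rv1. The members' median was -0.26 log2 in PC-3 (-0.02 log2 over all) and -0.35 log2 in 22Rv1 (0.0087 log2 over all). At 0% O2, 7 of 9 were below 0 in PC-3 (46.9% of all) and 3 of 9 in 22Rv1 (48.6% of all). Members of a level share the same libraries, so they are not independent.

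**Figure D4:**
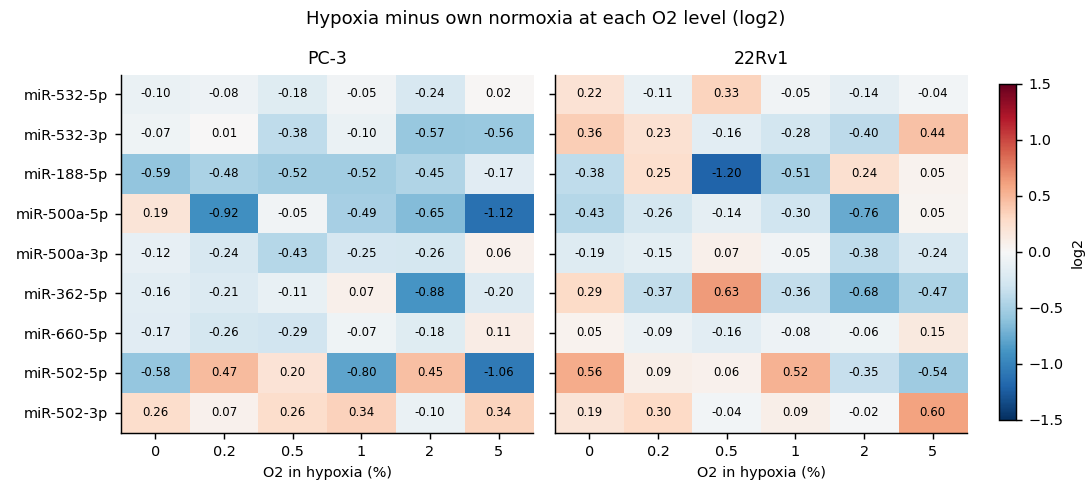
Fitted log2 difference, hypoxia minus its own normoxia, for the 9 tested members (rows, in genomic order) at each O2 level (columns, 0 to 5%) in PC-3 and 22Rv1; blue is lower in hypoxia and red higher. The miR-188-5p row of PC-3 is below 0 at all 6 levels (-0.59 to -0.17), while in 22Rv1 its values run from -1.20 to 0.25.

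With the block, 3 calls were made at single levels in PC-3. miR-188-5p fell at 0% O2 (-0.59 log2, adjusted p = 0.016), beside 4.75% lower calls. miR-500a-3p fell at 0.5% O2 (-0.43 log2, adjusted p = 0.0099), beside 2.38%, and miR-362-5p fell at 2% O2 (-0.85 log2, adjusted p = 0.030), also beside 2.38%. In 22Rv1 the block gave 3 calls as well. At 0.5% O2 miR-188-5p fell (-1.25 log2, adjusted p = 8.0e-04, beside 9.42% lower calls) while miR-362-5p rose (0.62 log2, adjusted p = 0.0096, beside 9.96% higher calls). At 2% O2 miR-362-5p fell (-0.67 log2, adjusted p = 0.034, beside 0.181% lower calls). These are edgeR's quasi-likelihood tests, with 2 pairs per level.

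The 0.5% level of 22Rv1 holds 1 of the libraries that stood apart. There miR-188-5p had 27.7 and 69.0 CPM in hypoxia and 113 and 104 CPM in normoxia, and miR-362-5p had 117 and 97.2 CPM in hypoxia and 68.5 and 68.3 CPM in normoxia. Both hypoxic libraries lay on the same side of both normoxic ones for each miRNA, including the library that did not stand apart.

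No member had a linear trend over the 6 levels in edgeR's test, in which 0.216% of miRNAs were called in PC-3 and 0.181% in 22Rv1. At an unadjusted p below 0.05 there were 0 members in PC-3 and 1 in 22Rv1, miR-362-5p, with 0.16 log2 per step toward lower O2 (SE 0.062, adjusted p = 0.44). Over all miRNAs 3.67% were below that p in PC-3 and 6.88% in 22Rv1. With the block that trend passed (0.19 log2 per step, SE 0.043, adjusted p = 0.0075), beside 3.08% of all miRNAs. No member was called by edgeR for a difference among the 6 normoxia groups of a line, beside 0% of all miRNAs, and 0 members had an unadjusted p below 0.05.

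The difference of the mean effect between the lines, PC-3 minus 22Rv1, was called for no member by edgeR, beside 2.94% of 613 miRNAs. In that test 0 members had an unadjusted p below 0.05. DESeq2's Wald test called no member, beside 3.59% of all. With the block no member was called either, beside 9.95% of all. In edgeR's fit without the block all 9 values were below 0, beside 52.4% of all miRNAs. Their median was -0.16 log2 against -0.02 log2 over all. With the block all 9 were below 0 as well. With DESeq2 size factors, library totals alone, the authors' factors or DESeq2's Wald test, 8 of 9 were below 0. The members' medians were then -0.13, -0.12, -0.14 and -0.13 log2, in that order. The values of miR-362-5p and miR-502-3p turned positive when certain single libraries were left out. The interval for miR-188-5p was wide (-0.22 log2, SE 0.23, adjusted p = 0.80), while that of miR-500a-3p was narrower (-0.07 log2, SE 0.084, adjusted p = 0.84). The call of miR-188-5p in PC-3 and its absence in 22Rv1 is therefore not a shown difference between the lines.

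Of the companions from the same locus, edgeR called 0 of 2 tested for the mean effect in PC-3 and 0 of 3 in 22Rv1. In PC-3, miR-501-3p had -0.14 log2 (SE 0.091, adjusted p = 0.36) and miR-501-5p -0.13 log2 (SE 0.12, adjusted p = 0.57). In 22Rv1 they had -0.10 log2 (miR-501-3p) and -0.17 log2 (miR-501-5p), and miR-188-3p, the other arm of miR-188, had -0.20 log2 (SE 0.20, adjusted p = 0.60). With the block miR-501-5p fell in 22Rv1 (-0.30 log2, SE 0.096, adjusted p = 0.022). miR-188-3p was below the filter in PC-3, and miR-500b-5p and miR-660-3p were below it in both lines.

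In normoxia 5 of 9 members were lower in PC-3 than in 22Rv1 in edgeR's test. Over all 613 miRNAs 46.3% were called lower and 86.0% in either direction, so most miRNAs differed between the lines and the members' count does not set the cluster apart. miR-362-5p had 20.3, 29.5 and 35.3 CPM (lowest, median, highest) in PC-3, against 68.3, 83.4 and 123 CPM in 22Rv1, with no overlap. It was 3.15-fold lower in PC-3 (-1.66 log2, SE 0.11, adjusted p = 6.7e-17). miR-532-5p had 129, 141 and 164 CPM in PC-3, against 227, 279 and 405 CPM in 22Rv1, also with no overlap (-1.01 log2, SE 0.085, adjusted p = 1.2e-13).

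miR-660-5p (-0.62 log2, SE 0.065, adjusted p = 3.9e-11), miR-500a-3p (-0.49 log2, SE 0.060, adjusted p = 2.0e-09) and miR-500a-5p (-0.76 log2, SE 0.17, adjusted p = 1.3e-04) were lower in PC-3 by less. miR-188-5p (-0.12 log2, SE 0.16, adjusted p = 0.51, between -0.27 and 0.12 log2 when 1 library was left out), miR-532-3p (-0.21 log2, SE 0.12, adjusted p = 0.11), miR-502-3p (-0.12 log2, SE 0.14, adjusted p = 0.40) and miR-502-5p (-0.21 log2, SE 0.19, adjusted p = 0.31) did not pass. Of the companions miR-188-3p, miR-501-5p and miR-501-3p were lower in PC-3 (-1.14, -0.91 and -0.95 log2). The median over all miRNAs was -0.15 log2 here, and -0.60 log2 when libraries were scaled by their totals alone. With library totals alone all 9 members were called lower, beside 57.4% of all miRNAs called lower and 86.8% in either direction. The members' own median was -0.49 log2 against -0.15 log2 over all miRNAs with TMM. With library totals alone it was -0.95 log2 against -0.60 log2.

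Ratios of 2 members within a library need no scaling and show whether the cluster kept its proportions. For each of 12 ratios in each line, the log2 ratio of raw counts (each plus 0.5) was averaged as hypoxia minus normoxia over the levels. Hypoxia and normoxia labels were permuted within each level (exact, two-sided), and p-values were adjusted over all 24 ratios. One ratio changed: miR-188-5p over miR-532-5p in PC-3, whose hairpins lie next to each other. It was 0.341 to 0.545 in hypoxic libraries (geometric mean 0.416) and 0.411 to 0.601 in normoxic ones (geometric mean 0.533). It fell in 11 of 12 pairs, by 0.36 on the log2 scale (exact permutation p = 8.6e-05, adjusted p = 0.0021), where the smallest p the permutations can give is 4.3e-05. In 22Rv1 the ratio was 0.226 in hypoxia and 0.267 in normoxia (geometric means), lower in 8 of 11 pairs (-0.26 log2, exact permutation p = 0.48, adjusted p = 0.68).

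The other 22 ratios did not pass. miR-500a-3p over miR-532-5p was 1.86 in hypoxia and 2.00 in normoxia in PC-3 (exact permutation, adjusted p = 0.26). It was 1.23 in hypoxia and 1.41 in normoxia in 22Rv1, lower in 10 of 11 pairs (exact permutation, adjusted p = 0.26). miR-660-5p over miR-532-5p was at 0.807 in hypoxia and 0.827 in normoxia in PC-3, and at 0.611 in hypoxia and 0.632 in normoxia in 22Rv1. Of the arm ratios, miR-362-5p over miR-362-3p had the smallest p, at 36.0 in hypoxia and 67.6 in normoxia in 22Rv1 (exact permutation, adjusted p = 0.066), on 1 to 9 counts of the 3p arm. With signs flipped over same-numbered pairs (the block), the exact adjusted p of this arm ratio was 0.031, and that of miR-500a-3p over miR-532-5p in 22Rv1 was also 0.031.

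Pair by pair, members of the cluster did not all go one way. In PC-3, 79 of the 108 comparisons of a hypoxic library with its normoxic partner (9 members, 12 pairs) were lower. Most members were lower in 11 of 12 pairs, with 4 to 8 of 9 lower per pair and in no pair all 9. In 22Rv1, 57 of 99 comparisons were lower, most members were lower in 6 of 11 pairs, and 2 to 8 of 9 were lower per pair. The 9 members of a pair share the same libraries and scaling, so these comparisons are not independent. The share of all miRNAs lower in each pair was not determined. For the mean effect, 51.0% of all miRNAs were below 0 in PC-3 and 48.6% in 22Rv1. The members' summed level had 491, 617 and 679 CPM in hypoxic PC-3 (lowest, median, highest), against 654, 690.3 and 748 CPM in normoxic PC-3. In 22Rv1 it had 971, 1047 and 1180 CPM in hypoxia, against 1019, 1106 and 1202 CPM in normoxia. This sum is mainly miR-500a-3p, miR-532-5p and miR-660-5p.

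Across the libraries of a line, correlations of log2(CPM + 1) between members were weak at the median, and are given as a description, since libraries share depth, scaling and condition. Counting error may limit r for members with few counts, such as miR-502-5p (3 to 19 per library in PC-3, 1 to 24 in 22Rv1). Its part in the weak median was not tested. In PC-3 (24 libraries) Pearson's r of the 36 member pairs ran from -0.22 to 0.71 with a median of 0.14, and 25 pairs were above 0. The median r of a member with the other 452 tested miRNAs was 0.01. The highest was miR-500a-3p with miR-660-5p (r = 0.71, Spearman's rho = 0.74, and r = 0.53 without the 2 libraries farthest from the median of miR-500a-3p). miR-188-5p, miR-500a-3p, miR-532-5p and miR-660-5p, the 4 most abundant members in normoxic PC-3, had r of 0.62 to 0.71 with each other. These r were 0.38 to 0.56 without the 2 libraries farthest from the median of the pair's first member in genomic order. miR-502-3p had r of -0.22 to 0.07 with the other members.

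In 22Rv1 (23 libraries) r of the member pairs ran from -0.74 to 0.68 with a median of 0.09, and 21 of 36 were above 0. miR-188-5p and miR-532-5p, at r = 0.62 in PC-3, had r = -0.74 here (rho = -0.57). Without the 2 libraries farthest from the median of miR-532-5p, r was 0.38 in PC-3 and -0.61 here. Without the 3 libraries that stood apart r was -0.47 (20 libraries). Low values of miR-188-5p, 43.5 and 19.0 CPM, came from the number 1 libraries at 5% O2 (hypoxia and normoxia), where miR-532-5p had its highest values, 414 and 405 CPM. The highest miR-188-5p value, 145 CPM, came with the lowest miR-532-5p value, 211 CPM, in hypoxia number 2 at 0.2% O2. miR-501-5p followed miR-188-5p in 22Rv1 (r = 0.85, and 0.73 without the 3 libraries), with 11.4 CPM where miR-188-5p had 19.0 CPM and 50.8 CPM where it had 145 CPM. Library depth and the epithelial marker sum, up to 74098 CPM in hypoxia and 70225 CPM in normoxia number 1 at 5% O2, moved with these values, and their part in them was not tested.

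**Figure D5:**
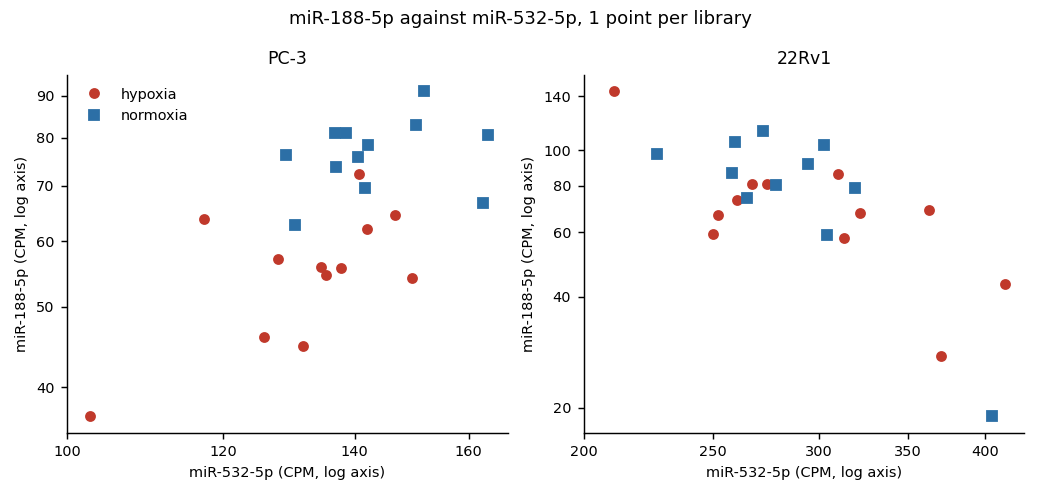
miR-188-5p (y) against miR-532-5p (x), both in CPM on log axes, 1 point per library, with hypoxia as red circles and normoxia as blue squares. In PC-3 the hypoxic libraries lie lower at similar miR-532-5p and r over the 24 libraries is 0.62; in 22Rv1 the points run the other way (r = -0.74 over 23 libraries), with the 145 CPM and 19.0 CPM libraries at the ends.

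Members differed in how much they varied. In 22Rv1 the SD of log2(CPM + 1) over libraries was 0.12 for miR-660-5p and 0.13 for miR-500a-3p, against 0.63 for miR-188-5p and a median of 0.33 over all tested miRNAs. In PC-3 it was 0.14 for miR-532-5p, 0.16 for miR-500a-3p and 0.32 for miR-188-5p, against a median of 0.24. The miRNAs whose level was most like the members' mean log2(CPM + 1), among those with at least 20 CPM, were let-7f-1-3p (r = 0.71), miR-17-5p (r = 0.66) and miR-23b-3p (r = 0.66) over the 24 PC-3 libraries. Over the 23 22Rv1 libraries they were miR-378a-3p (r = 0.71), miR-1307-5p (r = 0.71) and miR-34a-5p (r = 0.69). None was shared between the lines.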

How the data were processed

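Read counts (whole numbers, 1 row per mature miRNA) were deposited for the 47 libraries, per the file headers. A second deposited table by the authors holds TMM-scaled CPM, checked to be those counts times 1 constant per library (relative difference at most 2.6e-09). Its factors served only as an alternative. TruSeq Small RNA libraries were made, per the labels' protocols. FastQC and hg19 are named in the submitters' processing notes. Which aligner and counter were used is not given in the sources used, so how reads that fit several miRNAs were assigned is unknown.

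Counts were fitted in R 4.3.3 with edgeR 4.0.16 (1 mean per group, TMM, robust quasi-likelihood), within each line and over both lines for comparisons between lines, after dropping miRNAs that reached 5 CPM in fewer than 2 libraries. A call is a Benjamini-Hochberg adjusted p below 0.05. CPM in the text are TMM scaled over the 47 libraries, and intervals on effects are from the fit's SE. The lone 22Rv1 normoxia library of 0.2% O2 takes its spread from the remaining groups. Replicates differed by more than counting error (chi-square per degree of freedom at least 27.9). Tests were tried on simulated data first.

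Same-numbered hypoxia and normoxia libraries of a level deviated together. The correlation of their deviations from the group means was 0.30 to 0.67 in PC-3 and 0.11 to 0.42 in 22Rv1. The number is from the labels, and it was taken as a pairing for the block (a term per pair). Alternatives were DESeq2 1.42.0 size factors and Wald test, library totals, the authors' factors, other filters, the block, and leaving libraries out. Leaving out the 22Rv1 libraries more than 4 scaled median absolute deviations from the median of the first principal component was chosen after seeing the data.

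All members were described, and companions are the other arms and hairpins of the locus (miR-500b-3p is not analysed here). Likeness named 3 miRNAs per line by Pearson's r. Markers were sums of CPM. Blood or serum markers summed to 224 to 357 CPM in hypoxic and 290.0 to 400.1 CPM in normoxic PC-3, and to 805 to 2649 CPM in hypoxic and 1254 to 2427 CPM in normoxic 22Rv1, nearly all miR-486-5p. Members and lists were chosen with earlier results of these data known. Sequences and hairpin positions are from RefSeq (GRCh38.p14) and host transcripts from GENCODE 29 (GRCh38). The count table gives no coordinates.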

Additional observations from a re-analysis of the deposited data

How the results depend on the processing

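The calls of miR-188-5p and miR-500a-3p in PC-3 held under 8 of 8 alternatives and in 24 of 24 omissions of 1 library. miR-188-5p ran from -0.54 to -0.40 log2 over the omissions. The replicate block moved the members called from 2 to 4 (mean effect) and from 0 to 3 (single levels) in PC-3, and from 0 to 2 (mean effect), 0 to 3 (single levels) and 0 to 1 (trend) in 22Rv1. It changed no call in the line difference. Library totals alone moved the members called in normoxia from 5 to 9, beside 57.4% lower calls over all miRNAs. They gave 3 in the PC-3 mean effect (adding miR-500a-5p), beside 9.5% lower calls. Without the 22Rv1 libraries that stood apart, the members' median in normoxia was -0.54 log2, against -0.21 log2 over all miRNAs. Without the PC-3 number 1 libraries at 5% O2 that median was -0.55 log2, against -0.20 log2 over all. With the 20 CPM filter 6 of 7 tested members were called lower in normoxia, beside 50.9% of all miRNAs. For the ratios, 5 added to each count gave 2 calls and the replicate block 3, against 1. Causes were not tested.

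Leaving out 1 library gave 2 to 4 members for the mean effect and 0 to 3 for the single levels in PC-3, 0 to 1 for the mean effect and 0 to 1 for the trend in 22Rv1, 5 to 7 in normoxia, 1 to 3 ratios, and 0 for the other comparisons. The share called over all miRNAs changed with the omissions as well, so these counts alone do not set the members apart. Without PC-3 hypoxia number 2 at 0.5% O2, the mean effect was -0.54 log2 for miR-188-5p and -0.23 log2 for miR-500a-3p. It was -0.41 log2 for miR-532-3p and -0.18 log2 for miR-660-5p. Without 22Rv1 hypoxia number 2 at 0.2% O2, it was -0.49 log2 for miR-500a-5p. The ratios numbered 3 without PC-3 hypoxia number 2 at 0.2% O2, and 2 without any of 4 22Rv1 libraries (normoxia number 1 at 5%, hypoxia number 1 and normoxia number 2 at 1%, normoxia number 1 at 0.5% O2). Of 36 single-miRNA effects, 8 changed sign when some library was left out, and 0 of these 8 had been called. They include miR-188-5p (-0.38 to 0.02 log2), miR-532-3p (-0.04 to 0.19 log2), miR-532-5p (-0.02 to 0.08 log2) and miR-502-5p (-0.05 to 0.31 log2) for the mean effect in 22Rv1. Leaving out normoxia number 2 at 5% O2 gave an extreme of each of these 4. The control of that level is then normoxia number 1 alone, the library of 960421 counts that stood apart.

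The least abundant tested member in both lines, miR-502-5p, had 1 to 24 counts per library, and its SE of the mean effect was 0.23 log2 in PC-3 and 0.19 log2 in 22Rv1.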
